A study of Mus musculus with 8 samples.

Results

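The genes described here encode the enzymes and scaffolds that modify histones and DNA or move nucleosomes. They are 44 named genes of the Polycomb complexes, the SWI/SNF and CHD remodelers, and the DNA methylation, acetylation, deacetylation, histone methylation and demethylation machineries. A peak region was assigned to one of them when a peak summit lay inside the mm10 span of the gene or within 10 kb of it. By this rule 578 of 138385 peak regions belonged to the 44 genes, with the 2 regions that Cbx2 and Cbx8 share counted once. The rule used position alone and no measured level.

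ATAC-seq, which finds accessible DNA by letting a transposase insert adapters into it, was run on 8 libraries of L-GMPs from mice with leukemia driven by the MLL-AF9 fusion. L-GMPs are leukemic granulocyte-macrophage progenitors, sorted from bone marrow as cells negative for lineage markers and Sca-1 and positive for c-Kit, CD34 and CD16/32, and the labels call them leukemia stem cells. DEK is a chromatin-binding nuclear protein, and the study set libraries with Dek deleted or with mutated DEK serines beside controls. All groups carried the MLL-AF9 leukemia. The KO group held KO 1 and KO 2, labelled Dekfl/fl,MX1-Cre, and KO 3, labelled Dekfl/fl;Tie2-Cre. The 4S-A group held 2 libraries labelled Dek-Ser306A/Ser308A/Ser311A/Ser312A, in which alanine replaces 4 serines of DEK. The FL group held FL 1 and FL 2, labelled Dekfl/fl, and FL 3, labelled Dek+/+. Mx1-Cre is driven by an interferon-inducible promoter and Tie2-Cre by the promoter of an endothelial and hematopoietic receptor gene, so neither acts in leukemia cells alone. The labels describe KO 3, both 4S-A libraries and FL 3 together (the Tie2-Cre set), and KO 1, KO 2, FL 1 and FL 2 together (the Mx1-Cre set). The sets come from the protocol text of the labels and are named here after the Cre line of their knockouts, since the FL and 4S-A labels name no Cre. In the design text of the series, no Mx1-Cre knockout is mentioned. The labels give no ages, and they do not say whether the libraries of a group came from separate animals, so every p-value below measures only the spread between these libraries, which may be technical.

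The Dek gene itself had an open start in every library, at percentiles of the library's peak list of 65.7, 73.1 and 85.4 in KO 1 to KO 3, 89.2 and 87.7 in the 4S-A libraries, and 75.6, 78.4 and 82.2 in FL 1 to FL 3. Openness of the start does not show whether Dek was deleted, since the labels do not give the deleted part.

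Peaks were called by the authors in each library, and no read counts were used here, so read depth is unknown. Lists held 56245, 74026 and 93041 peaks in KO 1 to KO 3, 104605 and 94725 in the 4S-A libraries, and 51510, 54887 and 91586 in FL 1 to FL 3. Lists were thus longer in the Tie2-Cre set than in the Mx1-Cre set, and the median peak was wider, at 398 to 436 bp in the Tie2-Cre set and 318 to 340 bp in the Mx1-Cre set. Set, Cre line of the knockouts, genotype of the controls (Dek+/+ in FL 3, Dekfl/fl in FL 1 and FL 2), list length and peak width cannot be told apart. Regions of 7 granulocyte-macrophage progenitor genes (Kit, Cd34, Fcgr3, Fcgr2b, Mpo, Elane and Ctsg) were covered 8.61 to 18.7 percentage points above each library's own level, and each of these genes held a region in all 8 libraries. Regions of other lineages were not absent. The 3 B cell genes, the 3 stroma genes and the 3 monocyte and macrophage genes also held regions in all 8 libraries, as did 2 of the 3 endothelial genes, 1 of the 3 erythroid genes and 1 of the 3 T cell genes. Coverage above the library's level was not particular to the progenitor genes. Stroma regions stood at 13.5 to 22.6 points in all libraries but FL 3, where they stood at -8.73. Monocyte and macrophage regions stood at 1.64 to 19.6 points, erythroid regions at 0.46 to 34.6 and endothelial regions at -19.7 to 5.49. B cell regions stood at 4.65 to 17.0 points, except at -8.65 in 4S-A 1. The 5 T cell regions were covered 33.4 to 45.9 points below the library's level in the Tie2-Cre set and between 9.91 points below and 5.54 points above it in the Mx1-Cre set, and the part of other cells in the results was not tested. Fewer cells with a site open and less openness per cell cannot be told apart in bulk libraries.

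Polycomb complexes keep developmental genes silent: PRC2 methylates histone H3 at lysine 27, PRC1 ubiquitylates histone H2A, and PR-DUB removes that ubiquitin. SWI/SNF and CHD proteins use ATP to slide or evict nucleosomes, DNA methyltransferases and TET enzymes write and oxidise cytosine methylation, and acetyltransferases and deacetylases set histone acetylation. Many of these genes, among them Asxl1, Dnmt3a, Tet2 and Ezh2, are recurrently mutated in myeloid malignancies, and the gene that is fused in MLL-AF9 leukemia itself encodes a histone methyltransferase.

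Transcription start windows of 250 bases before to 50 bases after the start were available for 37 of the 44 genes from RefSeq (GRCm38.p6, the assembly also called mm10), at 51 starts. Cbx2, Arid2, Chd7, Kat6a, Hdac1, Hdac3 and Kdm6b had no entry. The windows of 6 starts are shown 5′ to 3′ on the strand of the gene, with CpG dinucleotides in capitals, because the counts of CpG are set beside the values of the starts below. Eed had the strongest and Tet1 the weakest start among those open in all 8 libraries, and Dnmt1 had an open and a closed start. In the tests described below, Crebbp had the lowest p of the starts between the sets, and Rnf2 had the lowest between 4S-A and FL 3.
Eed (chr7:89980927-89981226, minus strand): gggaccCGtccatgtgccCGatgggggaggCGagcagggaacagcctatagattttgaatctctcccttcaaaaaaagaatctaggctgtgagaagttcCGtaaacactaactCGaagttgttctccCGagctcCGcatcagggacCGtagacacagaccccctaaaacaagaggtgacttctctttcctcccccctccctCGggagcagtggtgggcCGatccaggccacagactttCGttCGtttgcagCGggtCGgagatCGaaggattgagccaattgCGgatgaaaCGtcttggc
Tet1 (chr10:62887275-62887574, minus strand): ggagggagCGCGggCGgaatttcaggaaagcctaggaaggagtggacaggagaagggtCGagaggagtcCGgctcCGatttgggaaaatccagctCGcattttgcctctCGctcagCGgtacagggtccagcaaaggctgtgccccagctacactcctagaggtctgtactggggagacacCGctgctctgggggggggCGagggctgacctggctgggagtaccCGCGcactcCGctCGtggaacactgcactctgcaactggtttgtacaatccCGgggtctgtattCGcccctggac
Crebbp (chr16:4213355-4213654, minus strand): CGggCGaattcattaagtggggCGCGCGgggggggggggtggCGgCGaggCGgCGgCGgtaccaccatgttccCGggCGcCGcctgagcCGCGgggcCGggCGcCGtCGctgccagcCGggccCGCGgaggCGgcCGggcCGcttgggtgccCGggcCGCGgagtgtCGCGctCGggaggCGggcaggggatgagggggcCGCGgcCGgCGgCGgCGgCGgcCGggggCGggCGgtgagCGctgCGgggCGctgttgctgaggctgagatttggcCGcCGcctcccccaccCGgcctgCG
Rnf2 (chr1:151500942-151501241, minus strand): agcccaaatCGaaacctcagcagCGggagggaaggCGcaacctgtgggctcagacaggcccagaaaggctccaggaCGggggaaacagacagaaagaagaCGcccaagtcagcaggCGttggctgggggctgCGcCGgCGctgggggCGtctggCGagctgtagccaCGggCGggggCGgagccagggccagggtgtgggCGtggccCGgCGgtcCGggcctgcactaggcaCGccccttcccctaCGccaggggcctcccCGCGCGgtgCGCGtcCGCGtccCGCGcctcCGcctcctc
Dnmt1, open start (chr9:20952574-20952873, minus strand): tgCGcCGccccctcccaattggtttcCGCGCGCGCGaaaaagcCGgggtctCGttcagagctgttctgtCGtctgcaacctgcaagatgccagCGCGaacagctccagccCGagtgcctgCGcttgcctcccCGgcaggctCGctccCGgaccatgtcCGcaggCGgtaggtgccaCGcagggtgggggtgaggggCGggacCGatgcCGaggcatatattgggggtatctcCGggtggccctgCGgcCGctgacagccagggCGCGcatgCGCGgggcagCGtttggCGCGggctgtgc
Dnmt1, closed start (chr9:20959839-20960138, minus strand): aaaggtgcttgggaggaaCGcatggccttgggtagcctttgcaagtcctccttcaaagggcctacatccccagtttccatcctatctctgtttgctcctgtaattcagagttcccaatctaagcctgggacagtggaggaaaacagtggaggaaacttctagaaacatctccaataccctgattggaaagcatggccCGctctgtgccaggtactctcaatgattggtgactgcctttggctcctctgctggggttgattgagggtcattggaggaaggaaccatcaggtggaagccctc

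The windows of the 51 starts were rich in CpG, with a median of 30 CpG and 67.3% GC, against 13 CpG and 56.7% over 21045 starts of all protein-coding genes. The Crebbp window had 49 CpG and the Rnf2 window 30. The Eed and Tet1 windows each had 17, so the strongest and the weakest open start did not differ in this count. The open Dnmt1 window (start at 20952623) had 33 CpG and the closed one, at 20959888, had 2. The sequence GGGCGG, a core of SP factor sites, was found on either strand in 41 of the 51 windows (80.4%, against 46.7% of all). CCGGAA, a core of ETS factor sites, was found in 13 (25.5%, against 18.9%), CCAAT in 16 (31.4%, against 38.5%) and TATAAA in 2 (3.92%, against 12.7%). These matches describe letters in the windows and do not show binding.

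The starts of these genes were open in almost every library. Of the 37 genes with an entry, 34 (91.9%) had a start with a peak in all 8 libraries, against 52.0% of 17274 protein-coding genes. The peak at the start of Eed, the PRC2 subunit that binds methylated lysine 27, had percentiles of 98.3, 98.5 and 97.8 for KO 1 to KO 3, 98.0 and 99.1 for the 4S-A libraries, and 98.3, 98.8 and 98.2 for FL 1 to FL 3. A percentile here is the rank of a peak's −log10 q within the list of its own library, the strongest peak having the highest, and since lists differ in length such percentiles describe a library and were not tested between groups. Cbx8, which encodes a PRC1 chromobox reader, and Kat7, which encodes a MYST acetyltransferase, followed with mean start percentiles of 98.3 and 98.1. The start of Tet1, which encodes an enzyme that oxidises 5-methylcytosine, was the weakest start held by all 8 libraries. It stood at 36.4, 38.9 and 47.2 in KO 1 to KO 3, 54.9 and 51.2 in the 4S-A libraries, and 32.3, 27.6 and 56.6 in FL 1 to FL 3 of lists that differ in length. Ranked among the regions held by all 8 libraries, it spanned 5.31 to 14.3.

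The exceptions were alternative starts and a pair of weakly open genes. The start of Ehmt2, which encodes a histone H3 lysine 9 methyltransferase, was held by 6 libraries. Its percentiles were 13.3 in KO 2 and 51.1 in KO 3, 56.4 and 47.0 in the 4S-A libraries, and 36.3 in FL 1 and 40.1 in FL 3, with no peak in KO 1 or FL 2. The start of Hdac7, a class IIa deacetylase gene, was held by 7 libraries, at 13.3 in KO 2 and 56.0 in KO 3, 45.1 and 41.5 in the 4S-A libraries, and 33.0, 43.97 and 41.3 in FL 1 to FL 3, with no peak in KO 1. Of 4 starts of Kdm2b, which encodes a CpG-binding demethylase that recruits PRC1, 3 were open in all 8 libraries and the one at 122988507 in 5. The listed start of Smarcd2 was open in none, although a region that runs over the upper end of the Smarcd2 span (chromosome 11, 106272273 to 106273525; the gene lies on the minus strand, so this is its 5′ end) was held by all 8 libraries. Together 5 starts of Dnmt1, Hdac7, Ehmt2 and Smarcd2 held no peak in any library, with a median of 5 CpG, and 42 starts held a peak in every library, with a median of 30. The closed start of Ehmt2, at 34898970, was an exception with 40 CpG. On these percentiles, whose lists differ in length, the widest ranges over the libraries were 43.1 points at Ehmt2, 42.7 at Hdac7, 37.2 at Chd4, 36.9 at Ring1 and 29.1 at Tet1. Ranked among the regions held by all 8 libraries, which leaves out Ehmt2 and Hdac7, the widest were 70.6 points at Chd4 (6.13 to 76.7), 54.1 at Arid1b and 51.4 at Crebbp, and those of Ring1 and Tet1 were 19.7 and 8.95.

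Away from the starts the regions were weaker and less often shared. Of 40 start regions, 37 were held by all 8 libraries, and their median percentile was 87.9. Of 421 regions inside the genes 72 (17.1%) were held by all 8, and their median percentile was 28.1. Over all 578 regions, 155 (26.8%) were held by all 8 libraries and 125 (21.6%) by a single one, against 24.1% and 23.5% of all 138385 regions. The 44 genes held a median of 10 regions each, or 13.3 per 100 kb of gene and flanks, against 4 and 9.87 for all protein-coding genes. The 44 genes were also longer, with a median span of 54012 bp against 17329 bp. All 44 had at least 1 region in all 8 libraries, as did 74 of 75 other genes of the same complexes and 68.5% of all protein-coding genes.

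**Figure D1:**
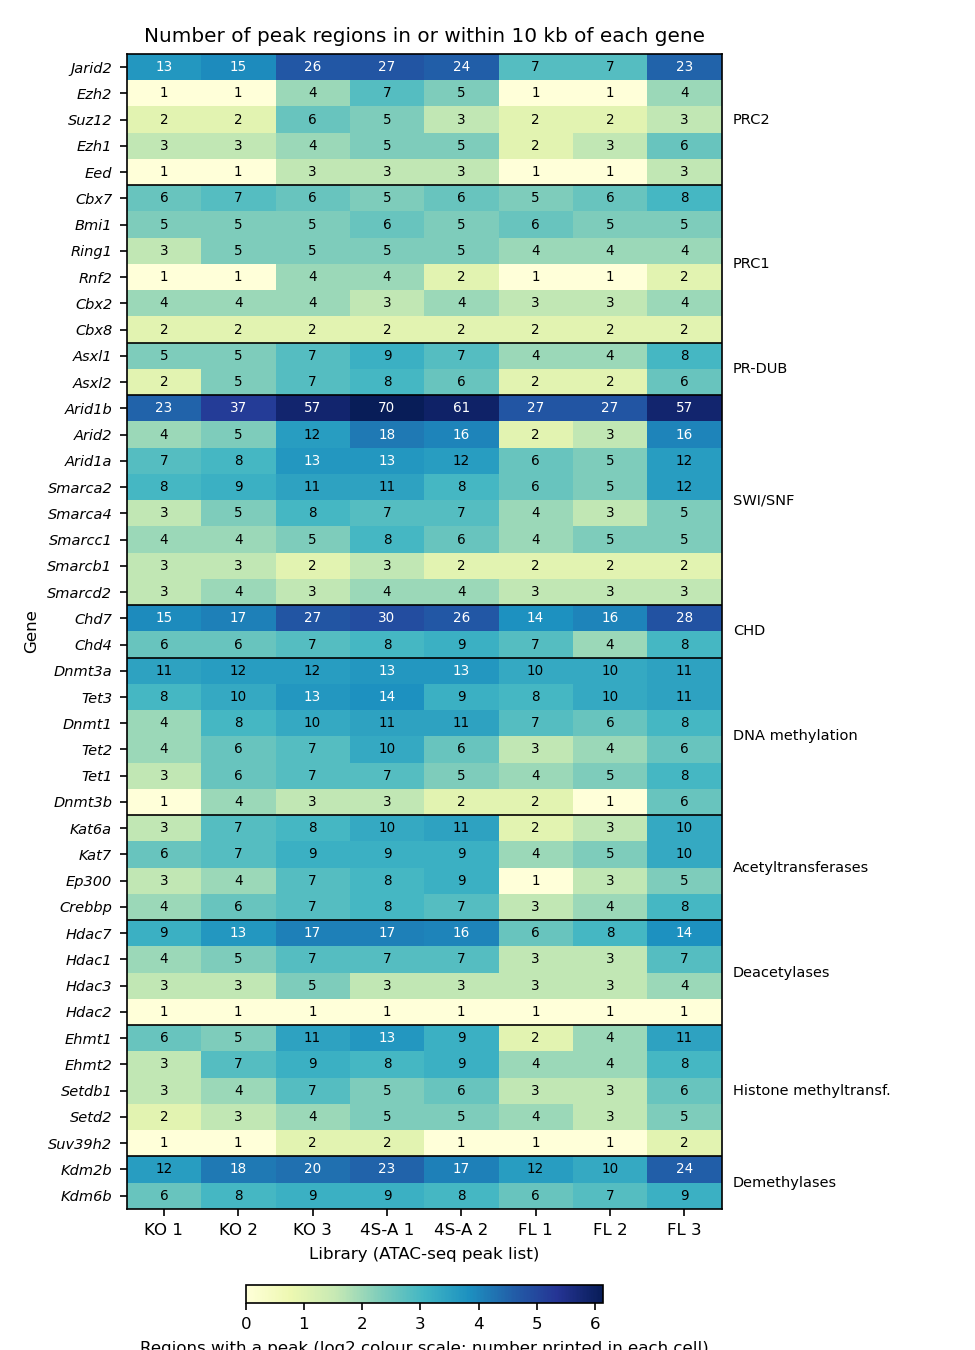
Number of peak regions in or within 10 kb of each of the 44 genes (rows, grouped by complex) in each library (columns: KO, 4S-A, FL); colour runs on a log2 scale and the number is printed in each cell. Arid1b holds the most regions in every library, 23 to 70, and most genes hold more regions in KO 3, 4S-A 1, 4S-A 2 and FL 3, the libraries with the longer lists.

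By complex, the PRC2 genes held 64 regions, of which Jarid2, which encodes an accessory subunit, held 34, Ezh2 and Ezh1, the methyltransferases, 11 and 6, Suz12, a scaffold, 10 and Eed 3. Their strongest region was the Eed start (chromosome 7, 89979855 to 89981409). The PRC1 genes held 32, with 10 at Cbx7, 7 at Bmi1, 6 at Ring1, 5 at Rnf2, 4 at Cbx2 and 2 at Cbx8. Cbx2 and Cbx7 encode chromobox readers, Bmi1 a PCGF subunit needed by stem cells, and Ring1 and Rnf2 encode the ubiquitin ligases. Of the PRC1 regions 50.0% were held by all 8 libraries, the highest share of the 10 classes, and the lowest was 17.4% at the acetyltransferase genes. The strongest PRC1 region was the Cbx8 start (chromosome 11, 119040106 to 119041535), which also lies in the flank of Cbx2. Asxl1 and Asxl2, the PR-DUB cofactors, held 9 each, led by the Asxl1 start at a mean percentile of 97.0.

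The SWI/SNF genes held 174 regions, 90 of them at Arid1b, which encodes a DNA-binding subunit and was the gene with the most regions. Arid2 held 24, Arid1a 17, Smarca2 15, Smarca4 11, Smarcc1 9, Smarcb1 4 and Smarcd2 4, where Smarca2 and Smarca4 encode the ATPases and the Smarcb1, Smarcc1 and Smarcd2 products are shared core subunits. Their strongest region (chromosome 10, 75892950 to 75893701, mean percentile 99.8) lay downstream of Smarcb1 within 1 kb of an end of Derl3. Of the CHD genes, Chd7 held 37 and Chd4, the NuRD ATPase, 9, with the strongest region at 93.2 within 1 kb of an end of Nop2. Among the DNA methylation genes Dnmt3a, a de novo methyltransferase, and Tet3 held 19 each, Dnmt1, the maintenance enzyme, and Tet2 12 each, Tet1 10 and Dnmt3b 7, led by a region upstream of Dnmt3a at percentiles of 91.1 to 99.0.

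Among the acetyltransferase genes Kat6a held 14, Kat7 12, and Crebbp and Ep300, the paralogous coactivators CBP and p300, 10 each. Of the deacetylase genes Hdac7, of class IIa, held 22, while the class I genes Hdac1, Hdac3 and Hdac2 held 8, 5 and 1. The single Hdac2 region, at the gene's start, was held by every library. The strongest region of this class (mean percentile 99.5) lay in the flank of Hdac3 within 1 kb of an end of Diaph1. Ehmt1 held 15, Ehmt2 11, Setd2, which encodes the lysine 36 methyltransferase, and Setdb1 8 each and Suv39h2 2, with Setdb1 and Suv39h2 encoding lysine 9 methyltransferases. They were led by the Suv39h2 start at 96.4, within 1 kb of an end of Dclre1c. Kdm2b held 29 and Kdm6b, which encodes a lysine 27 demethylase, 10, led by a region in the flank of Kdm6b at 90.5, within 1 kb of ends of Cyb5d1, Naa38 and Tmem88. In all, 40 regions lay within 1 kb of an end of another protein-coding gene, and which gene such a region serves was not tested.

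The first question was whether loss of DEK changed the openness of these genes. By presence of peaks few regions differed. Lost regions had a peak in all FL libraries and in no KO library, and gained ones the other way round. There were 171 regions open in each of the 3 FL libraries, of which 1 was lost, against 0.214% of all regions, and 206 open in each of the 3 KO libraries, of which 3 were gained, against 0.754%. The lost region lay 6381 bp beyond the 3′ end of Setd2 (chromosome 9, 110624299 to 110625204), within 1 kb of ends of Nradd and Nbeal2. No KO library had a peak there, and its percentiles were 65.1 and 63.9 in the 4S-A libraries, and 25.8, 16.0 and 44.5 in FL 1 to FL 3, so the mutant of the serines held it and the knockouts did not. It was not called when peak summits at most 250 bp apart defined the regions.

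The gained regions were weak. The one inside Ehmt1, an H3 lysine 9 methyltransferase gene (chromosome 2, 24852435 to 24852741), stood at 7.01, 20.1 and 9.95 in KO 1 to KO 3 and at 19.6 in 4S-A 1, with no peak in 4S-A 2 or any FL library. The one inside Asxl2 (chromosome 12, 3437911 to 3438177) stood at 17.5, 16.2 and 11.7 in KO 1 to KO 3 and at 11.2 in 4S-A 1, again with no peak in 4S-A 2 or FL. The one 9648 bp downstream of Jarid2 (chromosome 13, 44931063 to 44931414) stood at 10.6, 10.8 and 15.2 in KO 1 to KO 3 and was held by no other library. A call needs agreement of all libraries, so leaving 1 out can only keep or raise these counts. Such rises therefore do not show dependence on single libraries. Without FL 3 the gained regions numbered 24, without KO 1 they numbered 7 and without KO 3 they numbered 6. The lost regions numbered 2 without FL 1 and 2 without FL 2. These numbers are not set beside all regions here. Of the 75 other genes of the same complexes, 0 of 233 regions were lost and 2 of 284 gained.

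Within the Mx1-Cre set, where KO 1 and KO 2 have longer lists than FL 1 and FL 2, 1 of 172 regions was lost, the Setd2 region again, against 2.07% of all regions. There 27 of 211 were gained (12.8%), against 13.5% of all regions, a share near the background. The strongest gained region lay inside Jarid2 (chromosome 13, 44832084 to 44832479) at 53.5 and 61.5 in KO 1 and KO 2, with no peak in FL 1 or FL 2. It was followed by regions at Kat7, Smarca2, Hdac7, Crebbp, Tet2, Ep300 and Hdac1 with mean percentiles of 29.0 to 46.2 in KO 1 and KO 2. FL 3 held 21 of the 27 and KO 3 held 24. In lists cut to the 51510 strongest peaks each, 8 were gained and 7 lost, and without KO 1, which leaves KO 2 alone, 82 were gained. Without FL 2, 46 were gained and 16 lost, and 13 and 15 were lost without KO 2 and without FL 1. Leaving out 1 library can only keep or raise a count. The lists cut to 51510 peaks left 324 regions of these genes. The counts under these alternatives are not set beside all regions here and are not read as a result about these genes. KO 3 had no peak in 58 of the 398 regions of FL 3 (14.6%, against 14.4% of all regions) and 61 of its own 401 had none in FL 3 (15.2%, against 15.3%), with 1 library on each side and no replicate check.

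**Figure D2:**
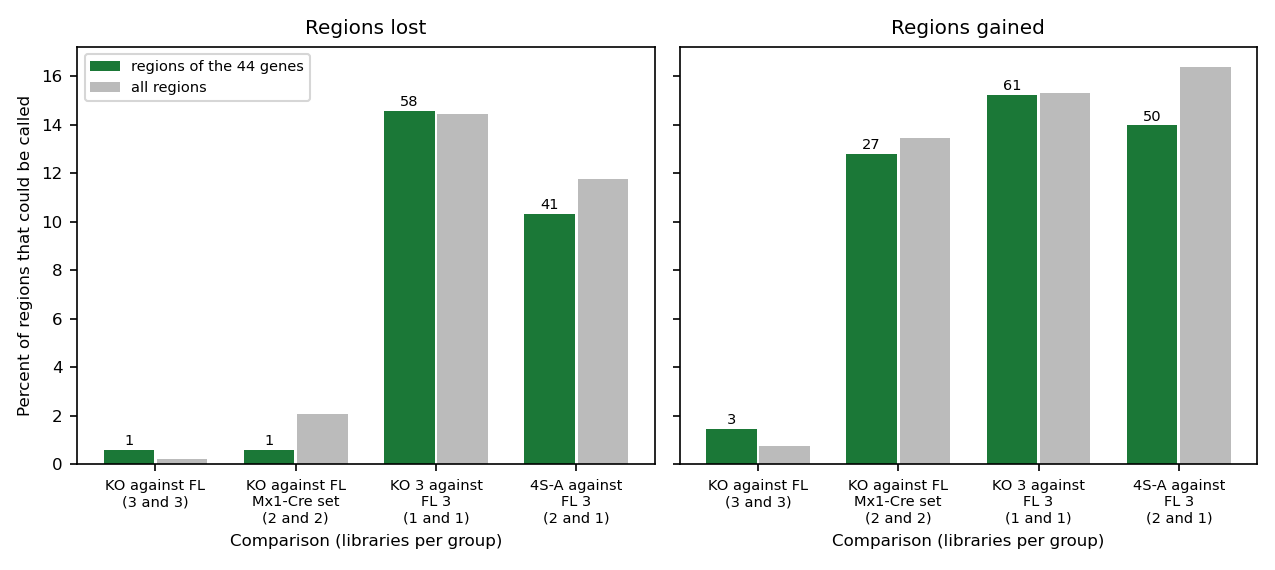
Percent of regions lost (left) and gained (right), out of those that could be, for the regions of the 44 genes (green, with their number) and all regions (grey), in 4 comparisons with their number of libraries. The bars are nearly equal for regions lost in KO 3 against FL 3 (14.6% against 14.4%). The green bar is the shorter for those lost within the Mx1-Cre set (0.581% against 2.07%), which rests on 1 region. It is the taller in KO against FL for regions lost (0.585% against 0.214%) and gained (1.46% against 0.754%), which rest on 1 and 3 regions.

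Coverage, the percent of regions with a peak minus the same percent over all regions of that library, was also close between the groups. It averaged 1.27 ± 2.37 points in KO (SD, n = 3), 2.58 ± 1.48 in 4S-A (SD, n = 2) and 1.30 ± 2.52 in FL (SD, n = 3). The KO minus FL difference of -0.03 points was far within the spread between libraries. By class the largest difference was at the deacetylase genes, with 8.91, 11.2 and 17.9 points in KO 1 to KO 3, 4.42 and 9.06 in the 4S-A libraries, and 1.66, 4.62 and 7.50 in FL 1 to FL 3. Every KO library was above every FL library there, over 36 regions of 4 genes, and no test was made of this class chosen for its size. PRC2 coverage in the Tie2-Cre set was 1.79 points in KO 3, 0.08 and -3.44 in 4S-A and -3.79 in FL 3. It was lower in the Mx1-Cre set. There it was -7.07 and -15.5 in KO 1 and KO 2, and -14.1 and -15.2 in FL 1 and FL 2. Of the 64 PRC2 regions 34 lay at Jarid2, which held 23 to 27 in Tie2-Cre lists and 7 to 15 in Mx1-Cre lists. PRC1 coverage went the other way, at -1.48 to 9.60 points in the Tie2-Cre set and 18.8 to 24.9 in the Mx1-Cre set.

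**Figure D3:**
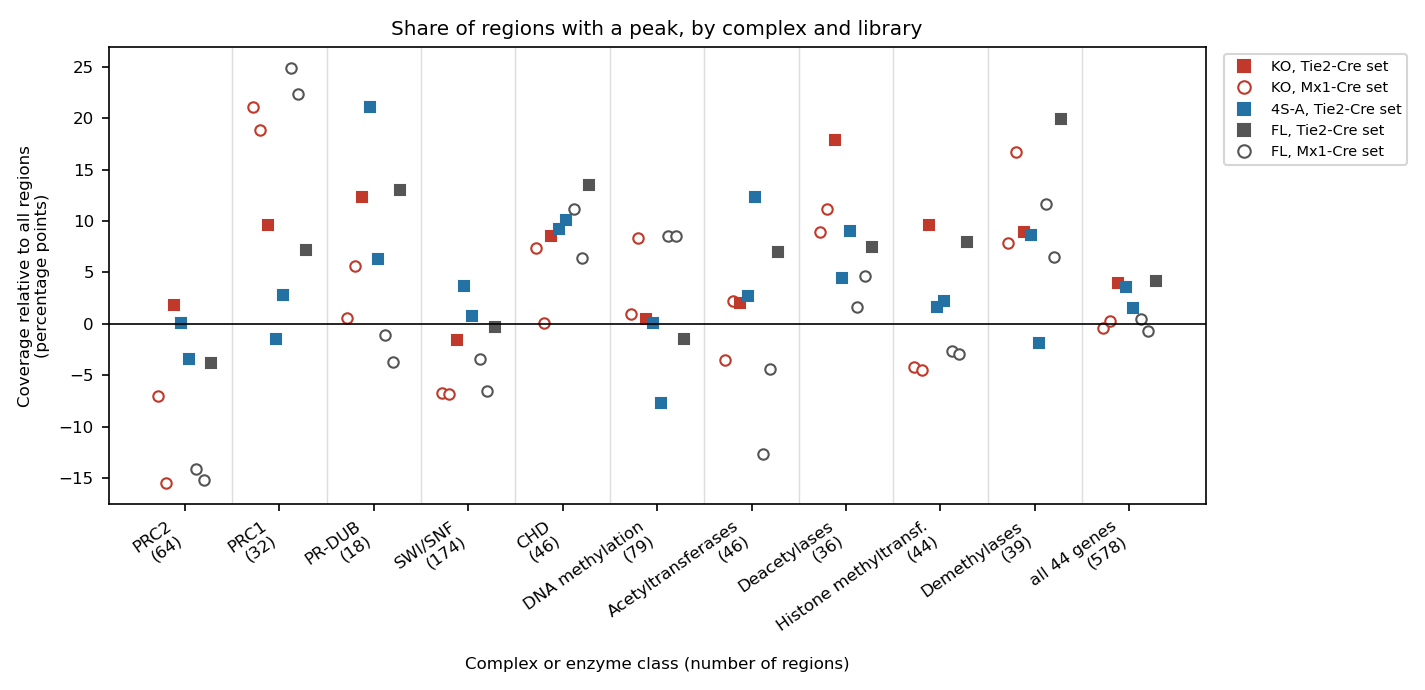
Coverage in percentage points (vertical axis) of each complex or enzyme class (horizontal axis, with its number of regions) in each library; filled squares are Tie2-Cre set libraries, open circles Mx1-Cre set libraries, coloured by group. At the deacetylase genes the 3 KO libraries (8.91 to 17.9) lie above the 3 FL libraries (1.66 to 7.50), and over all 578 regions the groups overlap.

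Strength was then compared on ranks taken over the same regions in every library, the percentile of −log10 q among regions held by all libraries of the comparison, called the shared rank below. A linear model (limma) with a term for the set compared KO with FL over 34313 regions held by all 6 libraries. None of the 34313 passed a Benjamini-Hochberg adjusted p of 0.05 (0%), and 7.67% had an unadjusted p below 0.05. Of 158 regions of the 44 genes 0 passed, and 10 (6.33%) had an unadjusted p below 0.05, a share near the background. The lowest p was at a region inside Jarid2 (chromosome 13, 44869486 to 44870120). Its shared rank was 84.8, 73.5 and 87.3 over KO 1 to KO 3, against 95.9, 98.6 and 91.9 in FL 1 to FL 3, a shift of -13.6 ± 3.05 points (SE) with an adjusted limma p of 0.533. All 3 KO libraries were below all 3 FL libraries.

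The next 4 regions had adjusted limma p of 0.595 to 0.603. The Dnmt1 start stood at 95.1, 95.3 and 93.6 over KO 1 to KO 3, against 89.1, 89.3 and 91.7 in FL 1 to FL 3, a shift of 4.63 points. A region in the flanks of Cbx2 and Cbx8 (chromosome 11, 119033974 to 119034788) stood at 69.2, 67.2 and 81.3 in KO and 44.8, 59.4 and 61.8 in FL, a shift of 17.3 points. In both of these every KO library was above every FL library. A region inside Asxl1 (chromosome 2, 153350543 to 153351507) shifted by -24.3 points and the Ehmt1 start by -6.13. The 222 shared regions of the 75 other genes also gave 0 calls, with 4.05% at an unadjusted p below 0.05. The KO effect was not shown to differ between the sets at any of the 158 regions. KO 3 and FL 3 are 1 library each, so a difference could be missed. KO minus FL was the higher in the Tie2-Cre set at 58.2% of the 158 regions, against 50.0% of all 34313. The region with the lowest limma p of the interaction lay in the flank of Kat6a. There KO minus FL was 20.6 points in the Tie2-Cre set and 1.63 in the Mx1-Cre set.

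The second question was whether the serine mutant differed from its control, FL 3. Of the 398 regions held by FL 3, 41 were held by neither 4S-A library (10.3%, against 11.7% of all regions), and of the 358 held by both 4S-A libraries, 50 were not held by FL 3 (13.97%, against 16.4%). No start region was among them. The strongest lost region lay inside Cbx7, a PRC1 chromobox gene (chromosome 15, 79956510 to 79956895). It had percentiles of 74.2, 78.6 and 42.2 in KO 1 to KO 3, no peak in 4S-A 1 or 4S-A 2, and 51.0, 40.5 and 58.6 in FL 1 to FL 3, so the 4S-A libraries alone lacked it. The lost regions at Kat6a, Tet2, Hdac3, Arid1b, Dnmt3b, Setdb1 and Kdm2b came next, at percentiles of 22.4 to 46.9 in FL 3. Of the 41, 15 were also held by KO 3 and 6 by a library of the Mx1-Cre set.

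The strongest gained region lay inside Arid1b (chromosome 17, 5029914 to 5030464), at 65.4 and 71.2 in the 4S-A libraries and 4.37 in KO 2, with no peak elsewhere. A region inside Chd4 (chromosome 6, 125109353 to 125109719) was held by the 4S-A libraries only, at 58.5 and 43.3. A region inside Smarcc1, which encodes a SWI/SNF scaffold (chromosome 9, 110230752 to 110231133), was likewise held by them only, at 53.8 and 40.6. Gained regions at Ehmt2, Dnmt1, Hdac7, Dnmt3a and Ring1 followed, with means of 39.0 to 59.2 in the 4S-A libraries. In all, 26 of the 578 regions (4.50%, against 5.95% of all 138385) were held by both 4S-A libraries and by no other, a share near the background, and 20 of the 50 were also held by KO 3. Each 4S-A library alone gave more calls, with 58 lost and 105 gained in 4S-A 1, and 73 lost and 65 gained in 4S-A 2. Fewer libraries that must agree give higher counts by construction, and these counts are not set beside all regions.

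On shared ranks, 87 of 33321 regions differed between 4S-A and FL 3 (50 higher, 0.15%, and 37 lower, 0.111%, by limma at an adjusted p below 0.05, FL 3 being 1 library that is taken to vary like the others). Of 155 regions of the 44 genes 0 passed. An unadjusted p below 0.05 was reached by 27 (17.4%, against 12.5% of all regions and 5.48% of the 219 regions of the 75 other genes). The start of Rnf2, a catalytic subunit of PRC1, came nearest. Its shared rank was 86.5 and 93.2 in the 4S-A libraries and 73.0 in FL 3, a difference of 16.9 ± 2.96 points (SE; limma, adjusted p = 0.0531). It was 96.5, 95.1 and 85.7 over KO 1 to KO 3, against 95.1 and 95.6 in FL 1 and FL 2, so FL 3 was the lowest of all 8 libraries. Without 4S-A 1 the difference was 20.2 points and passed, at an adjusted limma p of 0.0461, and its adjusted limma p over the 4 alternatives was 0.0461 to 0.507.

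A region inside Arid1b (chromosome 17, 5138548 to 5139244) stood apart in the 4S-A libraries. Its shared rank was 47.1 and 47.1 in them and 4.13 in FL 3, a difference of 43.0 ± 7.64 points (SE; limma, adjusted p = 0.0542), and it was 0.69, 4.89 and 6.81 over KO 1 to KO 3, against 9.07 and 0.47 in FL 1 and FL 2. No other library came near the 4S-A libraries there. A region upstream of Asxl1 (chromosome 2, 153336137 to 153336722) stood at 47.6 and 34.7 in the 4S-A libraries and 3.44 in FL 3, a difference of 37.7 points (limma, adjusted p = 0.0915). The Crebbp start differed by 23.8 points and the Setd2 start by 10.8 points, with adjusted limma p of 0.121 and 0.154.

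Larger differences in these genes were found between the sets. With the KO term kept in the model, KO 3 and FL 3 were compared with KO 1, KO 2, FL 1 and FL 2, a contrast added after the data had been seen. Of the 158 regions 29 (18.4%) ranked lower in the Tie2-Cre set and 8 (5.06%) ranked higher, against 9.86% lower and 8.04% higher over all 34313 regions (limma, adjusted p below 0.05). The 222 regions of the 75 other genes gave 29 lower and 22 higher. The 29 lay at 21 genes. By class, 7 of 41 SWI/SNF regions, 4 of 13 demethylase regions and 3 of 8 acetyltransferase regions were lower. The shift was negative at all 8 acetyltransferase regions, 9 of 11 deacetylase and 10 of 13 demethylase regions. It was negative at 8 of 16 CHD and 11 of 24 DNA methylation regions. Positive shifts made up 39.2% of the 158 regions and 50.4% of all 34313. Differences between the classes were not tested. For DNA methylation genes 1 of 24 was lower and 2 were higher.

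Part of this lay at gene starts. The 29 lower regions were 11 at starts, 10 inside genes, 4 upstream, 2 downstream and 2 in flanks. Of 37 start regions 11 were lower and 0 higher in the Tie2-Cre set, against 15.1% lower and 7.07% higher over 8472 start regions of all genes. The Crebbp start, at the gene of the acetyltransferase CBP, had the lowest limma p. Its shared rank was 48.0 in KO 3 and 41.0 in FL 3 of the Tie2-Cre set, and 86.3 and 89.7 in KO 1 and KO 2 and 91.0 and 89.3 in FL 1 and FL 2 of the Mx1-Cre set. The difference was -44.6 ± 4.46 points (SE; limma, adjusted p = 6.59e-05), and every library of the Tie2-Cre set was below every library of the Mx1-Cre set. The start of its paralog Ep300 shifted by -21.2 points, and those of Setd2, Jarid2, Rnf2 and Smarca2 by -17.8, -20.8, -15.8 and -15.5. These 6 starts passed under each of 9 alternatives that could be run on single regions.

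The other 5 starts did not pass in every alternative. Those of Chd4, Arid1b, Arid1a, Kdm2b and Asxl2 shifted by -49.8, -39.3, -22.7, -17.0 and -6.91 points and passed over all 6 libraries. None of these 5 passed without FL 3, where their shifts were -30.0, -28.0, -22.8, -5.60 and -5.06 and their adjusted limma p 0.082, 0.087, 0.0567, 0.387 and 0.222. The Kdm2b start also did not pass without FL 1 or FL 2 (limma, adjusted p = 0.062 and 0.0651), nor the Asxl2 start without KO 1, FL 1 or FL 2 (limma, adjusted p = 0.079, 0.0828 and 0.0638) or on normal scores (limma, adjusted p = 0.0564). At Arid1a the size of the shift was nearly the same with and without FL 3. On ranks among regions held by all 8 libraries, FL 3 was the lowest library at 14 of the 37 starts (37.8%, against 18.9% of 8441 start regions of all genes). On that scale the Chd4 start stood at 26.3 in KO 3, 36.9 and 31.6 in the 4S-A libraries and 6.13 in FL 3, against 53.6 to 76.7 in the Mx1-Cre set.

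The regions that ranked higher in the Tie2-Cre set lay away from the listed starts of the 44 genes. Among them, a region downstream of Smarcd2 covered starts of Ftsj3 and Psmc5. A region inside Smarcc1 (chromosome 9, 110228720 to 110229940) had a shared rank of 69.9 in KO 3 and 74.8 in FL 3, and 38.0, 8.31, 23.1 and 2.91 in KO 1, KO 2, FL 1 and FL 2. Its difference was 54.2 ± 11.1 points (SE; limma, adjusted p = 0.00477), and it did not pass without FL 3 (46.7 points; limma, adjusted p = 0.0841). A region downstream of Suz12 (chromosome 11, 80042703 to 80043931) differed by 47.8 points and one inside Arid1b (chromosome 17, 5293665 to 5294082) by 41.6, and neither passed without KO 3, at 31.3 and 28.5 points and adjusted limma p of 0.13 and 0.122. Among the largest shifts to lower ranks outside the listed starts of the 44 genes were those inside Dnmt3a (-48.5 points) and downstream of Hdac7 (-44.3). A region upstream of Ehmt2 (-40.2), which covers a start of Zbtb12, and a region inside Arid2 (-39.8) were also among them. The Dnmt3a region did not pass when peaks were ranked by fold enrichment (-31.6 points; limma, adjusted p = 0.0584), and the other 3 passed under each of the 9 alternatives.

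**Figure D4:**
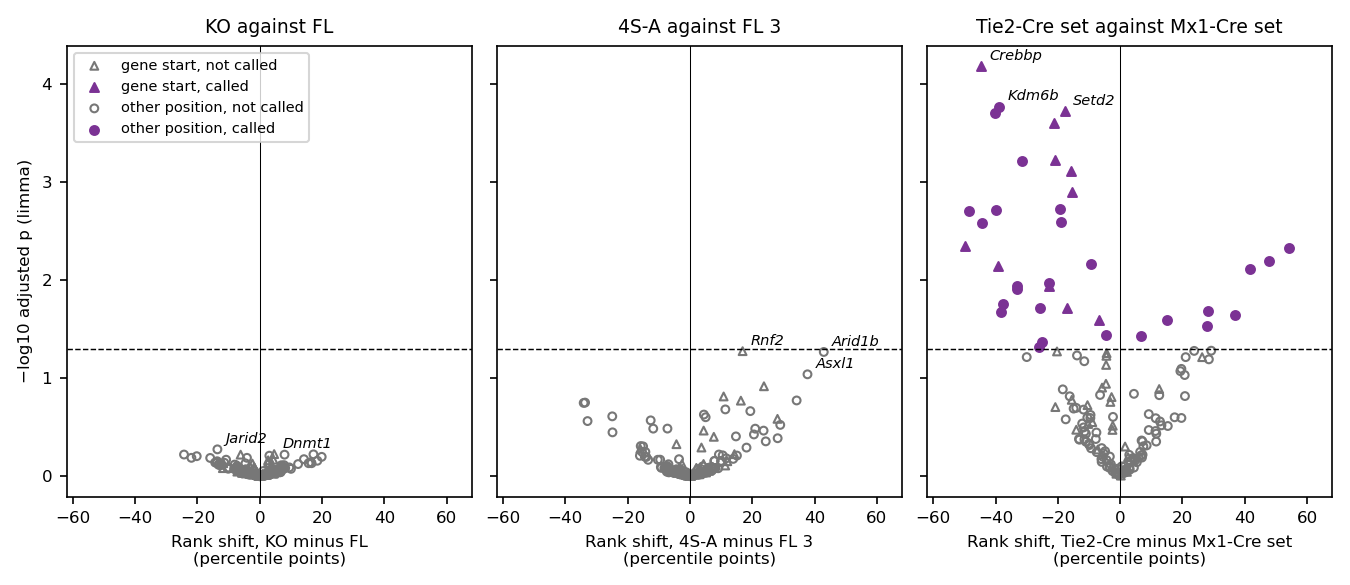
Shift in shared rank in percentile points (horizontal axis) and −log10 of the adjusted limma p (vertical axis) for the regions of the 44 genes in 3 comparisons; triangles are gene starts, circles other positions, filled purple marks those past the dashed line at an adjusted p of 0.05. No region passes in KO against FL or 4S-A against FL 3, and 29 lower and 8 higher pass between the sets.

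The 4S-A libraries, which the contrast between the sets did not use, stood on the side of the other Tie2-Cre libraries. At 28 of 28 of the lower regions that they also held, both 4S-A libraries ranked below all 4 Mx1-Cre libraries, and at 7 of 8 of the higher regions both ranked above them. Over all regions called between the sets and held by all 8 libraries, both 4S-A libraries likewise ranked below at 90.6% of 3107 lower regions and above at 86.2% of 2760 higher ones, so this held for most such regions and not for these genes alone. At the Crebbp start their ranks among regions held by all 8 libraries were 64.7 and 61.4. Over the 37 starts, the median rank on that scale was 85.5, 79.2 and 77.3 in KO 1 to KO 3, 72.0 and 75.2 in the 4S-A libraries, and 87.0, 88.7 and 65.8 in FL 1 to FL 3. At 17 of the 37 starts all 4 Tie2-Cre libraries were below all 4 Mx1-Cre libraries, and at 1 they were all above (45.9% and 2.70%, against 20.5% and 13.3% of 8441 start regions of all genes). Within the Tie2-Cre set, KO 3 exceeded FL 3 at 25 of the 37 starts (67.6%, against 54.3% of all start regions). The 4S-A mean exceeded FL 3 at 26 (70.3%, against 53.9%). In the Mx1-Cre set the KO mean exceeded the FL mean at only 11 (29.7%, against 41.1%). The median KO minus FL difference over these starts was thus 3.08 points in the Tie2-Cre set and -2.66 in the Mx1-Cre set. This contrast of directions was not tested, and KO 3 and FL 3 are 1 library each.

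**Figure D5:**
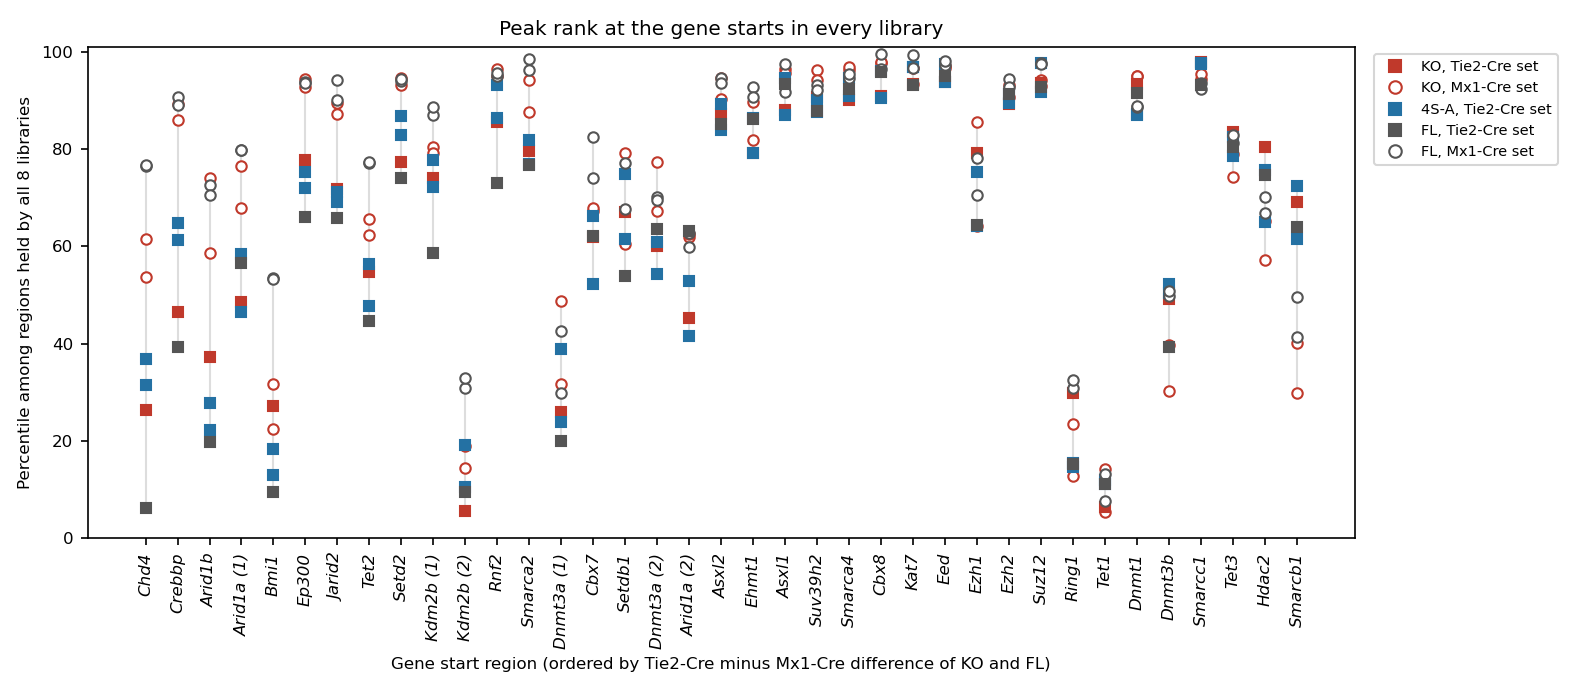
Shared rank among regions held by all 8 libraries (vertical axis, percentile) at the 37 start regions of the genes (horizontal axis, ordered by the difference between the sets; numbers in brackets tell apart starts of 1 gene); filled squares are Tie2-Cre set libraries, open circles Mx1-Cre set libraries, coloured by group. On the left of the plot, from Chd4 on, most squares lie below the circles, as at Crebbp (39.3 to 64.7 against 85.9 to 90.7), while starts such as Eed stay together.

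CpG content moved with this difference. Over all start regions held by the 6 libraries, the share that ranked lower in the Tie2-Cre set was 10.0% for windows with 0 to 19 CpG, 16.1% for 20 to 29, 19.9% for 30 to 39 and 22.2% for 40 or more, and the share that ranked higher was 9.45%, 6.90%, 4.82% and 2.45%. The starts of the 44 genes gave 0 of 6, 3 of 10, 5 of 15 and 3 of 6 lower in the same order. Their median shifts were -3.86, -11.4, -4.52 and -18.6 points, against 0.85, -0.68, -1.94 and -4.45 over all start regions. The part of CpG content in the difference was not tested.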

How the data were processed

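ATAC-seq peak lists of 8 libraries were analysed (3 KO, 2 4S-A, 3 FL). The submitters' processing notes name the mm10 build and MACS2, Bowtie2 2.2.9, Trim Galore 0.4.4, Picard and featureCounts, with no roles or parameters. Each library has its own deposited narrowPeak list, called separately and not on pooled samples. The score that the authors deposited for each peak was not used. The fold enrichment the authors deposited is a ratio over local background and ranked peaks in an alternative. Of the −log10 p and −log10 q the authors deposited, the second was used for ranks. Read depth is unknown and no interval was given.

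Peaks on 19 autosomes and X sharing at least 1 bp formed 1 region. Summits were matched to GRCm38.p6 gene spans, and all 44 symbols matched. Ranks were tested with limma 3.58.1 in R 4.3.3, with a mean-rank trend and Benjamini-Hochberg adjustment over all regions tested, on code checked on simulated data. The members, lists and classes were chosen with earlier results of these data known, and the contrast between the sets, the CpG classes and the split by start were added after seeing the data. Named regions were the strongest of each class, every region lost or gained in KO against FL, up to 8 per direction elsewhere, up to 10 called per contrast by size or else the 5 with the lowest p, and the 5 widest start ranges. The 11 called starts are also named, by their class. Same-numbered KO and FL libraries deviated together (correlations of 0.237, 0.311 and 0.559), all above the 0.1 taken to show pairing. In the Mx1-Cre set unlike numbers did so as well (0.265 and 0.276). The difference KO 1 minus KO 2 had a correlation of 0.00197 with FL 1 minus FL 2, so no pairing by number was seen within that set. Alternatives covered list length, q threshold, region definition, gene window, rank score, fold ranking, the block and left-out replicates.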

Additional observations from a re-analysis of the deposited data

Results flagged for a closer look

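The coverage of 5 classes differed between KO and FL in one direction in every library of the Mx1-Cre set and in the opposite direction between KO 3 and FL 3, where 1 library stands on each side. KO minus FL coverage was -5.02 points in the Tie2-Cre set and 7.94 points in the Mx1-Cre set at the acetyltransferase genes. At the PR-DUB genes it was -0.67 points in the Tie2-Cre set and 5.53 in the Mx1-Cre set. At the DNA methylation genes it was 1.86 points in the Tie2-Cre set and -3.93 in the Mx1-Cre set. At the PRC1 genes it was 2.46 points in the Tie2-Cre set and -3.68 in the Mx1-Cre set, and at the histone methyltransferase genes 1.60 and -1.54 in the same order. These differences between the sets were not tested. On shared ranks, KO minus FL differed between the sets by a median of 9.77 points in either direction over the 158 regions. Over all 34313 regions the median was 9.58 points.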

How the results depend on the processing

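Alternatives for the contrast between the sets were chosen after seeing the data. The counts of regions called under the alternatives below are not set beside all regions. They are not read as results about these genes. The KO minus FL coverage stayed within the spread between libraries under each of 9 alternatives, between -1.39 and 1.38 points without 1 replicate. Lists of equal length left 324 regions of these genes, against 578 in the full lists, so counts from the former cannot be compared directly with the main ones. In lists of equal length, gained regions were 1 in KO against FL, 8 in the Mx1-Cre set (with 7 lost) and 24 in 4S-A against FL 3. KO 3 against FL 3 had 24 missing and 30 added in them. With chained summits, 0 were lost in KO against FL and 7 in the Mx1-Cre set, and with summits inside the gene only, 0 and 0. Without 1 replicate, KO against FL lost 1 to 2 and gained 3 to 24, the Mx1-Cre set lost 1 to 16 and gained 33 to 82, and 4S-A against FL 3 lost 58 to 73 and gained 65 to 105. Fewer libraries that must share a region give the higher counts by construction; otherwise the cause was not tested. No KO against FL rank call was made under any alternative, and the replicate block (pairing by number) gave 0 higher and 0 lower and changed no call. Calls in 4S-A against FL 3 were 0 to 1 higher and 0 lower without 1 replicate. Between the sets, ranking by fold enrichment gave 14 higher and 45 lower, and without 1 replicate 3 to 8 were higher and 21 to 27 lower, with 5 higher without KO 2 or FL 2 and 3 without KO 3 or FL 3. Of the recomputed shifts of named regions between the sets, 147 kept their side of the threshold, 15 lost it and 0 reversed. FL 3 alone and unknown depth limit every comparison with 4S-A.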
